A study of Homo sapiens with 6 samples.

Results

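The m6A writer genes are the genes for the complex that methylates adenosine at the N6 position in mRNA. The rows named METTL3, METTL14, WTAP, VIRMA, ZC3H13, RBM15, RBM15B, CBLL1 and METTL16 were taken by gene symbol from the deposited expression table, which gave 9 genes of 58735. RNA was sequenced from MM.1S, an established human multiple myeloma cell line derived from malignant plasma cells. The control group comprised 3 libraries from cells given a non-targeting siRNA (si-NC), and the PRMT1 KD group comprised 3 libraries from cells given siRNA against PRMT1 (si-PRMT1), at 100 nM and with collection after 72 h. Both groups went through transfection, and which of the siRNAs against PRMT1 was used for the libraries is not named. The methods call the replicates biological and dependent on one another, and no source says whether they came from separate cultures, so the p-values below measure the spread between these libraries.

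METTL3 carries the catalytic site for N6-methyladenosine, and METTL14 binds it and holds the RNA substrate. WTAP anchors this pair in nuclear speckles and links it to a larger regulatory part, in which VIRMA is the scaffold, ZC3H13 helps to keep the complex in the nucleus, RBM15 and RBM15B bring it to sites on RNA, and CBLL1 (HAKAI) is a RING finger protein. METTL16 is a separate enzyme that methylates U6 snRNA and the mRNA of MAT2A, the enzyme that makes the methyl donor S-adenosylmethionine (SAM). PRMT1 uses the same donor to methylate arginine in proteins. The study asked how PRMT1 acts on m6A in myeloma cells, and the comparison here addresses the mRNA levels of the enzymes that set the mark.

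The study also used siRNAs against 3 of these genes in its other experiments. Their target sites are shown because they mark where the core of the complex was silenced there. These siRNAs were not applied in these 6 libraries.
si-METTL3: ggactcgactacagtagct
si-METTL14: ggaccaacgcttacaaata
si-WTAP: gaagcatatgtacaagctt
Each site is 19 bases long, is written as the sense strand of the mRNA, lies in coding sequence, and was found in transcripts of 1 gene only in GENCODE 29. The METTL3 site is at chr14:21503332-21503350 (GRCh38, minus strand), in exon 3 of 11 of the transcript ENST00000298717.8, and is present in 1 of the 2 coding transcripts. The METTL14 site is at chr4:118710012-118710030 (plus strand), in exon 11 of 11 of ENST00000388822.9, and is present in 2 of 3 coding transcripts. The WTAP site is at chr6:159742101-159742119 (plus strand), in exon 4 of 8 of ENST00000358372.8, and is present in 5 of 5 coding transcripts, so it does not separate WTAP isoforms.

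Reads on genes were between 14439217 and 16465026 per library. PRMT1, the targeted gene, had 58.9 to 62.8 FPKM (fragments scaled to gene length and library size) in the control libraries and 12.5 to 14.02 FPKM in the PRMT1 KD libraries (log2 fold change -2.13 ± 0.0552 standard error, limma adjusted p = 2.77e-05). Plasma cell markers were present, with 10 of 10 genes reaching 1 FPKM. Their summed level was 1407 to 1487 FPKM in control and 1394 to 1559 FPKM in PRMT1 KD. The single markers did not move together. The means of CD38, TNFRSF17, IRF4, MZB1 and JCHAIN were higher in PRMT1 KD, and those of SDC1, SLAMF7, XBP1, PRDM1 and POU2AF1 were lower. The mean of SLAMF7 went from 38.0 to 23.8 FPKM, and that of JCHAIN from 496 to 543 FPKM. Of the markers of other cells, 0 of 3 monocyte, 0 of 3 red cell and 0 of 3 fibroblast genes reached 1 FPKM, against 2 of 3 T cell, 1 of 3 epithelial and 1 of 3 mature B cell genes. The summed T cell markers were 35.7 to 39.4 FPKM in control and 39.8 to 42.5 FPKM in PRMT1 KD. Most of that sum was CD3E, with a mean of 33.4 FPKM in control and 38.1 FPKM in PRMT1 KD. The mean of CD3D went the other way, from 0.678 to 0.132 FPKM, and that of CD3G was 3.08 and 3.01 FPKM. The part of other cells in the results was not tested. In such libraries a smaller number of cells and less RNA per cell cannot be told apart.

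All 9 writer genes were expressed in each of the 6 libraries, and none of them was called changed in PRMT1 KD cells. Differences were tested with limma on log2(FPKM + 1) over the 13585 genes with a mean of at least 1 FPKM, with Benjamini-Hochberg adjustment, and a gene with an adjusted p under 0.05 was called. Of all genes tested, 279 were called, or 2.05%. Called members numbered 0 of 9, and 0 of 9 had an unadjusted p under 0.05 against 19.5% of all genes tested. limma's voom on the reads worked back from FPKM also called 0 of 9. The 9 log2 fold changes ran from 0.0011 to 0.10, with a median of 0.07, against a median of 0.0095 over all genes tested. All 9 were above 0 on the deposited scale, but those of METTL3 and CBLL1 fell below 0 when each library was scaled to the median gene. The 95% intervals of the 9 genes together spanned 0.857-fold to 1.30-fold on the log2(FPKM + 1) scale. The standard errors ran from 0.0442 for METTL16 to 0.122 for ZC3H13. Among the 5782 genes tested whose mean lay within the range of the members, 152 (2.63%) were called, and the smallest called log2 fold change was 0.23 in size.

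**Figure D1:**
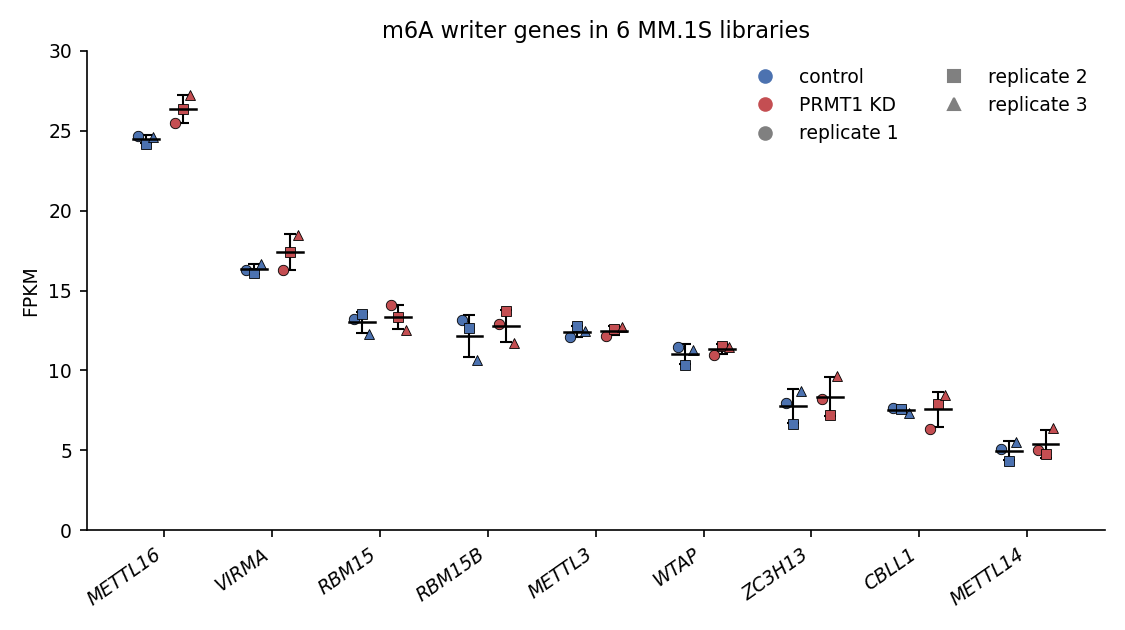
FPKM of each m6A writer gene (y axis, linear from 0) in 3 control libraries (blue) and 3 PRMT1 KD libraries (red), with symbols for replicate number, the mean as a horizontal line and SD as error bars. METTL16 sits highest on the deposited scale and is the gene whose PRMT1 KD libraries all lie above the control libraries, and METTL14 and ZC3H13 show the widest relative spread within a group.

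METTL3 (ENSG00000165819, chromosome 14, 21498133 to 21511375, minus strand), the catalytic subunit, had 12.1, 12.8 and 12.5 FPKM in the control libraries and 12.2, 12.6 and 12.7 FPKM in the PRMT1 KD libraries. The groups lay on top of each other. The means were 12.4 ± 0.337 FPKM (SD, n = 3) and 12.5 ± 0.302 FPKM (SD, n = 3), and the log2 fold change was 0.0069 (95% interval -0.11 to 0.12, standard error 0.0481, adjusted p = 0.959 by limma). Its spread within groups was among the smallest, at percentile 4.2 of the 5782 genes tested whose mean lay within the range of the members. METTL3 shares 388 exonic bases, 6.58% of its exons, with TOX4, which is read from the other strand. No source names the strand setting of the counting, so reads there cannot be assigned with certainty. TOX4, a chromatin-binding protein, had 13.8 ± 0.709 FPKM (SD, n = 3) in control and 12.9 ± 0.519 FPKM (SD, n = 3) in PRMT1 KD, and did not pass the test (limma adjusted p = 0.451).

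METTL14 (ENSG00000145388, chromosome 4, 118685368 to 118715433, plus strand), the RNA-holding partner of METTL3, had 5.10, 4.33 and 5.50 FPKM in control and 5.04, 4.76 and 6.38 FPKM in PRMT1 KD. The groups overlapped, and replicate 2 was lowest and replicate 3 highest in both. The means were 4.98 ± 0.597 FPKM (SD, n = 3) and 5.39 ± 0.868 FPKM (SD, n = 3), and the log2 fold change was 0.09 (95% interval -0.18 to 0.37, standard error 0.117, adjusted p = 0.708 by limma). METTL14 had the lowest FPKM of the 9 genes. Its spread within groups lay at percentile 90.1 of the same 5782 genes. METTL14 sets the lower end of their range, so the others lay at or above its level. The ratio of METTL3 to METTL14 in FPKM, which relates mRNAs of proteins that pair in the complex, was 2.53 ± 0.367 (SD, n = 3) in control and 2.35 ± 0.331 (SD, n = 3) in PRMT1 KD. The ratio overlapped between groups and lay between 2.00 and 2.95 over the 6 libraries. The size of this ratio depends on the gene length used, and per base of 1 coding transcript it lay between 5.67 and 8.37, a length chosen after seeing the data. METTL3 was above METTL14 in every library on both lengths.

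WTAP (ENSG00000146457, chromosome 6, 159725585 to 159756319, plus strand), the adaptor, had 11.4, 10.3 and 11.3 FPKM in control and 10.97, 11.5 and 11.5 FPKM in PRMT1 KD. Control replicate 2 was the lowest library and the other 5 lay close together, so the groups overlapped. The means were 11.02 ± 0.612 FPKM (SD, n = 3) and 11.3 ± 0.310 FPKM (SD, n = 3). The log2 fold change was 0.04 (95% interval -0.10 to 0.17, standard error 0.057, adjusted p = 0.762 by limma), which corresponds to 0.935-fold to 1.13-fold. WTAP was backed by 1067 to 1216 reads per library. It shares 298 exonic bases, 4.64% of its exons, with SOD2 on the opposite strand, and SOD2, the mitochondrial superoxide dismutase, had 740 to 953 reads per library. The processed pseudogene WTAPP1, which resembles WTAP mRNA, held 1 to 10 reads.

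VIRMA (ENSG00000164944, chromosome 8, 94487693 to 94553529, minus strand), the scaffold of the regulatory part, had 16.3, 16.1 and 16.7 FPKM in control and 16.3, 17.4 and 18.5 FPKM in PRMT1 KD. In PRMT1 KD, replicates 2 and 3 lay above all control libraries, and replicate 1 lay among them. The means were 16.4 ± 0.293 FPKM (SD, n = 3) and 17.4 ± 1.12 FPKM (SD, n = 3), and the log2 fold change was 0.08 (95% interval -0.05 to 0.22, standard error 0.0573, adjusted p = 0.475 by limma).

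ZC3H13 (ENSG00000123200, chromosome 13, 45954465 to 46052759, minus strand), the zinc finger protein that retains the complex in the nucleus, had 7.97, 6.63 and 8.71 FPKM in control and 8.18, 7.24 and 9.67 FPKM in PRMT1 KD. As for METTL14, replicate 2 was lowest and replicate 3 highest in each group. The means were 7.77 ± 1.05 FPKM (SD, n = 3) and 8.36 ± 1.23 FPKM (SD, n = 3). The log2 fold change was 0.09 (95% interval -0.19 to 0.38, standard error 0.122, adjusted p = 0.717 by limma), the widest interval of the 9 genes. Its spread within groups lay at percentile 91.9 of the 5782 genes whose mean lay within the range of the members.

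RBM15 (ENSG00000162775, chromosome 1, 110338506 to 110346681, plus strand), an RNA-binding recruiter, had 13.2, 13.5 and 12.3 FPKM in control and 14.1, 13.3 and 12.6 FPKM in PRMT1 KD. Replicate 3 was lowest in both groups, and the groups overlapped. The means were 13.01 ± 0.652 FPKM (SD, n = 3) and 13.3 ± 0.758 FPKM (SD, n = 3). The log2 fold change was 0.03 (95% interval -0.11 to 0.18, standard error 0.0618, adjusted p = 0.820 by limma). RBM15 shares 175 exonic bases with RBM15-AS1 on the opposite strand, which had 9 to 17 reads.

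RBM15B (ENSG00000259956, chromosome 3, 51391268 to 51397908, plus strand), the paralog of RBM15, had 13.1, 12.6 and 10.7 FPKM in control and 12.9, 13.7 and 11.7 FPKM in PRMT1 KD. Here too replicate 3 was the lowest library of each group, and the groups overlapped. The means were 12.2 ± 1.30 FPKM (SD, n = 3) and 12.8 ± 1.01 FPKM (SD, n = 3). The log2 fold change was 0.07 (95% interval -0.14 to 0.28, standard error 0.0903, adjusted p = 0.717 by limma). The level is uncertain because RBM15B shares 1325 exonic bases, 19.95% of its exons, with DCAF1 on the opposite strand, and DCAF1, a substrate receptor of a ubiquitin ligase, was expressed at 13.4 ± 0.742 FPKM (SD, n = 3) in control and 13.1 ± 0.714 FPKM (SD, n = 3) in PRMT1 KD. The ratio of RBM15 to RBM15B was between 0.971 and 1.15 over the 6 libraries, and the overlap with DCAF1 makes this ratio as uncertain as the level of RBM15B.

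CBLL1 (ENSG00000105879, chromosome 7, 107743697 to 107761667, plus strand), which encodes HAKAI, had 7.62, 7.56 and 7.35 FPKM in control and 6.36, 7.90 and 8.43 FPKM in PRMT1 KD. The control libraries lay close together inside the span of the PRMT1 KD libraries. The means were 7.51 ± 0.141 FPKM (SD, n = 3) and 7.56 ± 1.07 FPKM (SD, n = 3), and the log2 fold change was 0.0011 (95% interval -0.22 to 0.23, standard error 0.0949, adjusted p = 0.997 by limma). The coefficient of variation was 1.88% in control and 14.2% in PRMT1 KD, and this difference in spread was not tested. CBLL1 shares 333 exonic bases with the antisense gene AC002467.1, which had 49 to 75 reads.

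METTL16 (ENSG00000127804, chromosome 17, 2405562 to 2511891, minus strand), the enzyme for U6 and MAT2A RNA, had 24.7, 24.2 and 24.6 FPKM in control and 25.5, 26.3 and 27.2 FPKM in PRMT1 KD. It was the member whose groups did not overlap, with all 3 PRMT1 KD libraries above all 3 control libraries, an arrangement found in 13.6% of all genes tested. The means were 24.5 ± 0.262 FPKM (SD, n = 3) and 26.3 ± 0.872 FPKM (SD, n = 3), so PRMT1 KD stood at 108% of control. The log2 fold change was 0.10 (standard error 0.0442, 95% interval -0.0035 to 0.21). It did not pass the test, with an unadjusted p of 0.0561 and an adjusted p of 0.270 from limma, and permuting the libraries (exact test, two-sided) gave p = 0.1, the lowest value possible with 3 against 3. The adjusted p lay between 0.143 and 0.514 under the other settings tried. The ratio of METTL16 to METTL3 was 1.97 ± 0.0725 (SD, n = 3) in control and 2.11 ± 0.0261 (SD, n = 3) in PRMT1 KD, with the PRMT1 KD libraries all higher, on the deposited length scale. METTL16 overlaps 2 short entries awaiting annotation on its own strand, neither of which shares exonic bases with it.

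FPKM is scaled by the gene length in the deposited table, and the order of levels between members depends on that length. It exceeds the coding transcript with the longest coding sequence by very different factors, from 1.00 for RBM15B (6641 against 6641 bases) and 1.03 for METTL14 to 1.76 for WTAP and 2.93 for METTL3 (5894 against 2015 bases). On the deposited FPKM scale the order over the 6 libraries was METTL16 (25.4 FPKM), VIRMA (16.9 FPKM), RBM15 (13.2 FPKM), RBM15B (12.5 FPKM), METTL3 (12.5 FPKM), WTAP (11.2 FPKM), ZC3H13 (8.07 FPKM), CBLL1 (7.54 FPKM) and METTL14 (5.19 FPKM). METTL16 was 1.51 times VIRMA, and VIRMA was 1.28 times RBM15, in both cases with ranges that did not overlap. RBM15, RBM15B and METTL3 could not be ordered, since the ranges of neighbours overlapped and RBM15B was above METTL3 in 3 of 6 libraries. METTL3 lay 1.12 times above WTAP and WTAP 1.39 times above ZC3H13, again without overlap. The ranges of ZC3H13 and CBLL1 overlapped, as did those of CBLL1 and METTL14, although CBLL1 was above METTL14 within each of the 6 libraries. Scaled instead by the length of that 1 transcript, an alternative chosen after seeing the data, the order of means was METTL16 (39.8), METTL3 (36.5), VIRMA (27.8), WTAP (19.6), RBM15 (14.5), RBM15B (12.5), ZC3H13 (10.3), CBLL1 (9.32) and METTL14 (5.34). METTL3 and WTAP thus moved above RBM15 and RBM15B, and METTL3 above VIRMA with ranges that did not overlap, while METTL16 stayed highest and METTL14 lowest. Which isoforms the cells used was not measured, so neither length is known to be the right one. The choice between these fixed lengths does not alter the ratio of PRMT1 KD to control within a gene on the linear scale. Whether isoform use differed between the groups was not tested.

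Replicate 3 was the highest or the lowest library in both groups for 5 members, and such a position was also common among all genes tested. Replicate 3 held the highest value in both groups for 3 members, METTL14, VIRMA and ZC3H13, against 20.3% of all genes tested. Replicate 3 held the lowest value in both groups for 2 members, RBM15 and RBM15B, against 22.5% of all genes tested. Transcript GC content also differed between the members. The transcripts of METTL14, CBLL1, VIRMA and ZC3H13 had a GC content of 38.4%, 40.3%, 40.7% and 41.6%, those of WTAP, METTL16 and METTL3 had 44.2%, 47.7% and 49.9%, and those of RBM15 and RBM15B had 54.5% and 55.9%. When the 10097 tested genes with a coding transcript were divided into 5 equal bins by GC content, replicate 3 was highest in both groups for 66.9% of the lowest bin, where METTL14, VIRMA and CBLL1 lie, for 33.9% of bin 2, where ZC3H13 and WTAP lie, and lowest in both groups for 44.9% of bin 4, where RBM15 and RBM15B lie. For CBLL1, despite its low GC content, replicate 3 was the lowest library in control and the highest in PRMT1 KD. The median difference between replicate 3 and replicate 2 went from 0.14 in the lowest bin to -0.11 in the highest in control, and from 0.15 to -0.12 in PRMT1 KD, on the log2(FPKM + 1) scale. METTL14 differed by 0.29 and 0.36 and ZC3H13 by 0.35 and 0.37 between the same libraries in control and in PRMT1 KD, more than the median of their bins.

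**Figure D2:**
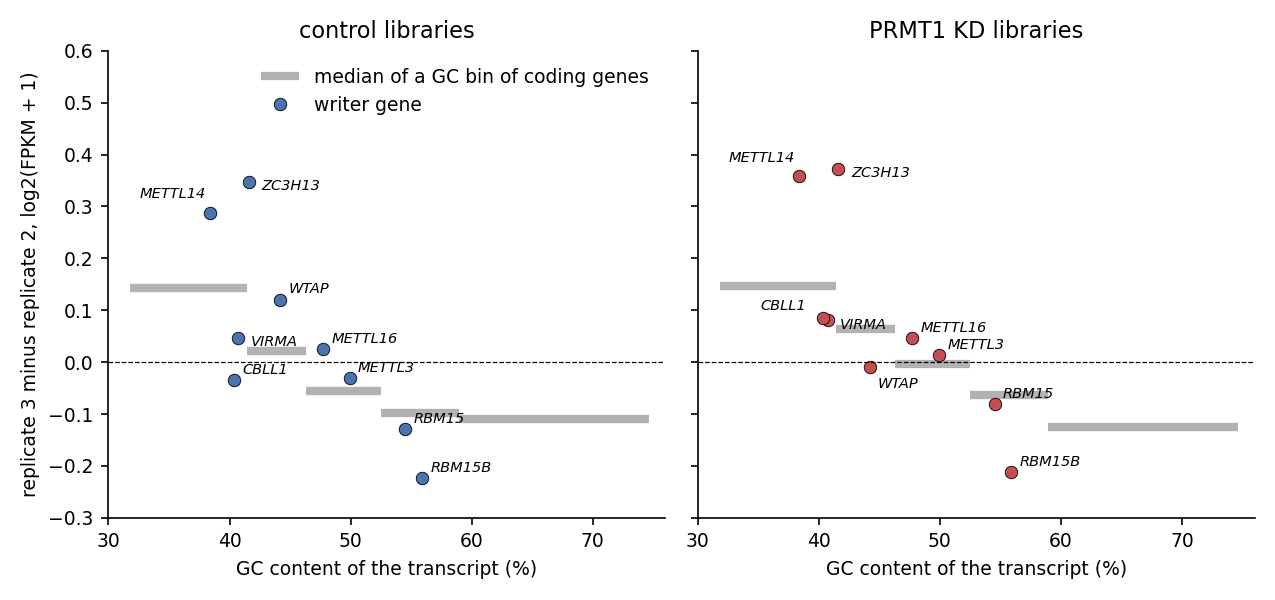
Difference between replicate 3 and replicate 2 on the log2(FPKM + 1) scale (y axis) against the GC content of the transcript in percent (x axis), in control (left) and PRMT1 KD (right). Points are the 9 writer genes and grey bars are the medians of 5 equal bins of 10097 coding genes, which fall from 0.14 to -0.11 in control and from 0.15 to -0.12 in PRMT1 KD, while METTL14 and ZC3H13 lie above the bars in both.

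The difference between PRMT1 KD and control also followed GC content, with a median log2 fold change of 0.08 in the lowest bin and -0.04 in the highest. METTL14, VIRMA and CBLL1 lie in the lowest bin. There the log2 fold changes of 0.09 for METTL14 and 0.08 for VIRMA were close to the median, while CBLL1 stood at 0.0011. In their own bins, WTAP (0.04 against a median of 0.04) and METTL3 (0.0069 against 0.01) were also close. ZC3H13 (0.09 against 0.04), METTL16 (0.10 against 0.01), RBM15 (0.03 against -0.03) and RBM15B (0.07 against -0.03) stood above the medians of their bins. The fit was repeated with a smooth trend with GC content taken out of each library, an alternative chosen after seeing the data. After it, METTL14 stood at a log2 fold change of 0.0094 (95% interval -0.14 to 0.16), VIRMA at 0.02 (-0.08 to 0.11) and ZC3H13 at 0.03 (-0.15 to 0.21). CBLL1 stood at -0.07 (-0.23 to 0.09) and WTAP at -0.0045 (-0.12 to 0.11). The members rich in GC moved the other way, with RBM15 at 0.05 (-0.05 to 0.15) and RBM15B at 0.10 (-0.03 to 0.23). METTL3 (0.0007) and METTL16 (0.08, limma adjusted p = 0.166) moved little. The intervals of METTL14 and ZC3H13 narrowed, with standard errors of 0.0703 and 0.0831 in place of 0.117 and 0.122. Of the members, 0 of 9 were called after the correction, although 17.7% of the 10097 coding genes then were, against 7.6% of the same genes without it. The sign was above 0 for 7 of 9 members, and their median was 0.02.

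**Figure D3:**
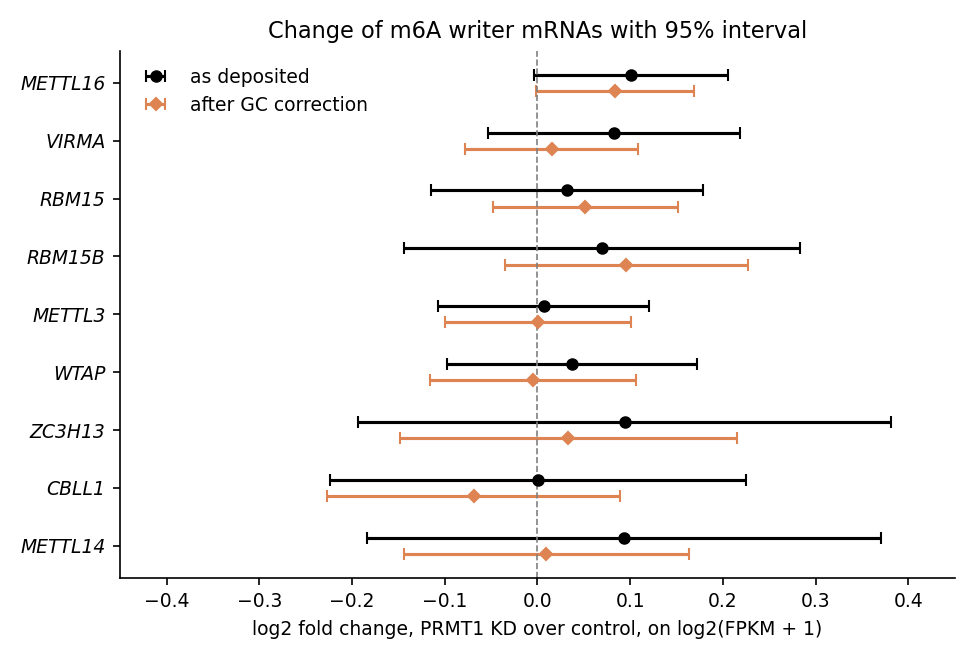
Log2 fold change of each m6A writer gene, PRMT1 KD over control, on the log2(FPKM + 1) scale (x axis) with its 95% interval, for the values as deposited (black circles) and after the GC correction (orange diamonds). All intervals include 0, and after the correction VIRMA, METTL14 and ZC3H13 move toward 0 while CBLL1 and WTAP move below it.

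The sequence GGAC, a core motif in which m6A is often placed, was counted in the coding transcript of each member on its own strand. It was present in 9 of 9 members and in 99.36% of the 10097 transcripts, so its presence sets no member apart. Per kilobase, RBM15 held 5.89 and RBM15B 5.57 copies (percentiles 79.3 and 75.7), and METTL14 and CBLL1 held 2.40 and 2.48 copies (percentiles 21.7 and 23.6), against a median of 3.79. RBM15 and RBM15B were also the transcripts richest in GC, but the other members did not follow that order. VIRMA, with 40.7% GC, held 4.60 copies per kilobase and METTL16, with 47.7% GC, held 2.80. A match is a string of letters and not a methylated site, and the m6A sequencing was not analysed here.

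Other genes of the pathway were described from 5 lists with 34 genes, of which 31 were tested. The lists were other RNA N6-adenosine methyltransferases, partner proteins of WTAP and VIRMA, readers of m6A, erasers of m6A, and the supply and recycling of SAM. Called genes numbered 0 of 31, against the 2.05% of all genes tested. With an unadjusted p under 0.05 there were 4 higher and 1 lower, against 19.5% of all genes tested in either direction. The PRMT1 KD libraries lay all above the control libraries in 7 of the 31 genes and all below them in 1, against 13.6% and 12.3% of all genes tested.

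Among the other methyltransferases (5 of 5 tested, 0 called, median log2 fold change 0.05), TRMT112, the small protein that stabilizes METTL5 and other methyltransferases, stood at -0.13 (limma adjusted p = 0.352). It was also the list's highest gene, at 71.9 FPKM over the 6 libraries. ZCCHC4, which methylates ribosomal RNA, stood at 0.15 (limma adjusted p = 0.390). In both the groups overlapped.

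Among the partners of WTAP and VIRMA (5 of 5 tested, 0 called, median 0.11), CPSF6, a subunit of the cleavage factor that sets the position of the poly(A) tail, had 16.4, 16.5 and 18.4 FPKM in control and 19.1, 18.6 and 21.5 FPKM in PRMT1 KD. The groups did not overlap, and the log2 fold change was 0.20 (standard error 0.0732, unadjusted p = 0.0302, limma adjusted p = 0.201). THRAP3, a splicing-associated protein found with WTAP, had 43.2 to 45.7 FPKM in control and 46.5 to 49.0 FPKM in PRMT1 KD. Its groups did not overlap either, and the log2 fold change was 0.09 (adjusted p = 0.297 by limma). Neither gene passed the test.

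Among the readers, 11 of 14 were tested and 0 called, with a median of 0.04. IGF2BP1, IGF2BP2 and IGF2BP3 fell under the filter, with at most 0.0408 FPKM in any library, so the readers of that family were at or near 0 in these cells. HNRNPA2B1, a nuclear reader, was the highest of the list at 118 FPKM and its log2 fold change was 0.02 (adjusted p = 0.863 by limma). RBMX, an RNA-binding protein that recognises m6A-opened structures, stood at 0.07 with groups that did not overlap (limma adjusted p = 0.426). FMR1, an RNA-binding regulator of translation, stood at 0.10 with groups that overlapped (limma adjusted p = 0.490).

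The erasers are the demethylases FTO and ALKBH5. ALKBH5 had 58.2, 58.7 and 52.1 FPKM in control and 52.0, 50.4 and 46.9 FPKM in PRMT1 KD. The PRMT1 KD libraries were all below the control libraries, although control replicate 3 and PRMT1 KD replicate 1 nearly met. The log2 fold change was -0.17 (standard error 0.0638, unadjusted p = 0.0291, limma adjusted p = 0.197), which did not pass. It passed after the GC correction, at -0.15 with a limma adjusted p of 0.0227, a setting in which 17.7% of the 10097 coding genes were called. FTO was much lower, at 3.23 to 3.61 FPKM in control and 3.42 to 3.73 FPKM in PRMT1 KD, and the log2 fold change was 0.06 (adjusted p = 0.691 by limma).

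In the supply and recycling of SAM (8 of 8 tested, 0 called, median 0.07), 3 genes had an unadjusted p under 0.05, all of them higher. The share of all genes tested under that threshold, in either direction, was 19.5%. AHCY, which breaks down the S-adenosylhomocysteine left after each methyl transfer, had 73.1, 73.9 and 69.1 FPKM in control and 82.6, 84.3 and 80.6 FPKM in PRMT1 KD. The groups stood well apart, with a log2 fold change of 0.19 (standard error 0.0439, 95% interval 0.09 to 0.30) and an unadjusted p of 0.00305, but the limma adjusted p was 0.0786. AHCY was called when the values were rescaled to TPM (limma adjusted p = 0.0489) and in limma's voom on the reads worked back (0.0393). It was also called over coding genes only (0.0442) and after the GC correction (0.00144), so its call depended on the setting. The fit over coding genes called 7.6% of the 10097 coding genes, and the GC correction called 17.7%. MAT2A, the SAM synthetase whose mRNA METTL16 methylates, had 98.7, 104 and 99.5 FPKM in control and 106, 113 and 110 FPKM in PRMT1 KD. Its groups did not overlap, and the log2 fold change was 0.12 (standard error 0.045, unadjusted p = 0.0290, limma adjusted p = 0.197). MTR, methionine synthase, stood at 0.15 (unadjusted p = 0.0411, limma adjusted p = 0.234), and was named after its values were seen. MAT2A and METTL16 were each higher in all 3 PRMT1 KD libraries, an arrangement found in 13.6% of all genes tested. Neither gene passed the test, and a link between them was not tested.

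**Figure D4:**
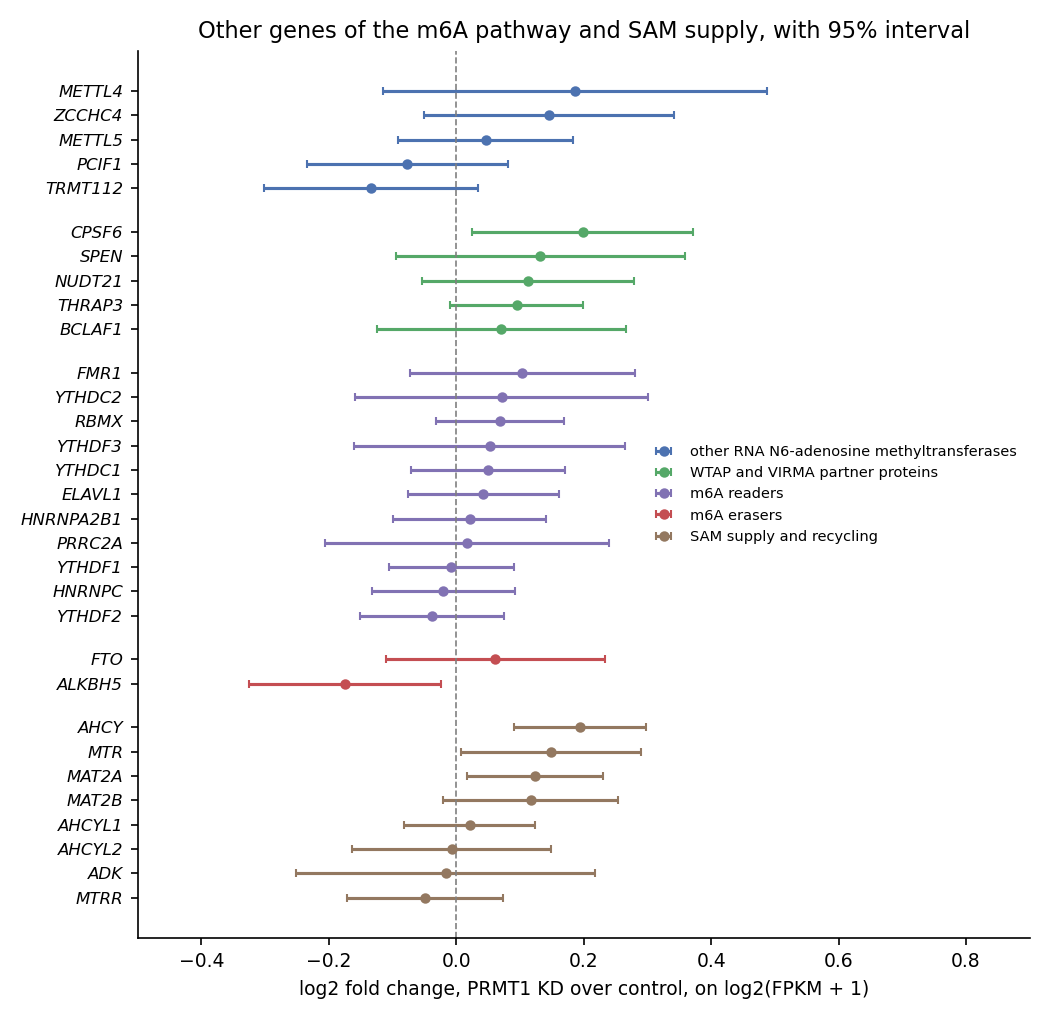
Log2 fold change, PRMT1 KD over control, on the log2(FPKM + 1) scale (x axis) with its 95% interval for the 31 tested genes of the 5 other lists, coloured by list. The intervals of CPSF6, AHCY, MTR and MAT2A lie above 0 and that of ALKBH5 below 0, and none of the 31 genes had an adjusted p under 0.05.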

How the data were processed

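FPKM values of each gene in each library were deposited by the authors, with gene lengths and coordinates. The submitters' processing notes name featureCounts 1.5.0-p3 and hg38, and the aligner and annotation release are not given in the sources used here. FPKM multiplied by gene length gave whole reads for 100% of values above 0 (tolerance 0.001). The deposited scale already held a median-of-ratios adjustment between libraries. All 58735 identifiers were in GENCODE 29, 58690 of them at the same coordinates. Groups came from the sample labels. log2(FPKM + 1) was tested two-sided by limma (version 3.58.1, R 4.3.3) with a moderated variance that followed the mean level, without covariates, and a fold change on this scale understates that of low genes. The fit was tested on simulated data, in a version redesigned after a first one, at a larger assumed dispersion, recovered fewer changed genes than its preset bar. GC content came from the coding transcript with the longest coding sequence, and its trend was taken out with lowess (span 0.3). Members and lists were chosen with earlier results of these data known. Named are all members, PRMT1, overlapping genes, the 3 genes nearest WTAP in profile and, per list, the 2 with the smallest p and the highest in level. Alternatives covered pseudocount (0.1), filter (none, 5 FPKM), scaling, trend, voom, threshold, replicate block and each library left out. Other experiments of the study were not analysed here.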

Additional observations from a re-analysis of the deposited data

How the results depend on the processing

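In 18 alternatives 0 of 9 writer genes were called, and METTL16 and VIRMA kept their sign in all of them. With each library scaled to the median gene, METTL3 stood at -0.0115 and CBLL1 at -0.0172 on the log2 scale. In voom CBLL1 stood at -0.0041, and after the GC correction, with or without the replicate block, it stood at -0.0686, WTAP at -0.0045 and HNRNPA2B1 at -0.0629. With each library left out in turn, the log2 fold change ran from -0.0122 to 0.0251 for METTL3, -0.0149 to 0.164 for METTL14, -0.0053 to 0.0628 for WTAP, -0.0044 to 0.182 for ZC3H13, -0.0064 to 0.071 for RBM15, -0.0137 to 0.126 for RBM15B, -0.0725 to 0.106 for CBLL1, 0.0398 to 0.128 for VIRMA, 0.0781 to 0.124 for METTL16 and -0.0117 to 0.0549 for HNRNPA2B1. VIRMA stood at 0.0398 without PRMT1 KD replicate 3 and at 0.128 without PRMT1 KD replicate 1. METTL14 fell below 0 without PRMT1 KD replicate 3 (-0.0149), RBM15B without control replicate 3 (-0.0137), and WTAP and ZC3H13 without control replicate 2 (-0.0053 and -0.0026).

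The count over all genes moved much more than that of the members. It was 279 as reported, 35 with no filter, 473 at a mean of at least 5 FPKM, 43 without trend, 927 in voom, 767 over coding genes, 1786 with the GC correction, 2655 at an unadjusted p, and 13 to 94 with 1 library left out. The cause was not tested. Over the 5 other lists the count was 1 under TPM, in voom and over coding genes (AHCY). It was 2 with the GC correction (AHCY and ALKBH5) and 5 at an unadjusted p. The share called of all genes in the fit was 7.6% over coding genes and 17.7% with the GC correction. At an unadjusted p it was 19.5%.

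Same-numbered libraries deviated together with correlations of 0.02, 0.0631 and 0.101, and other pairs with -0.0751 to 0.0186. These correlations alone do not show that the numbers pair the libraries. By GC content, however, replicate 3 was highest in both groups for 66.9% of the lowest bin. It was lowest in both groups for 57.1% of the highest bin. Whether same-numbered libraries had an origin in common was not tested. With the replicate block 204 genes, 0 members and 0 list genes were called. With the block and the GC correction 0 members and 4 list genes were called (AHCY, ALKBH5, CPSF6 and TRMT112), against 2100 of the 10097 coding genes.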

Other observations

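Among all genes tested, the 3 whose profile over the 6 libraries lay nearest to that of WTAP were GARS-DT, DBR1 and NAPG, with root mean square distances of 0.0127, 0.0127 and 0.0153 on the log2(FPKM + 1) scale after centring. GARS-DT is a divergent transcript of GARS, DBR1 opens intron lariats, and NAPG acts in vesicle fusion. DBR1 had 5.62, 5.004 and 5.53 FPKM in control and 5.48, 5.74 and 5.57 FPKM in PRMT1 KD, with control replicate 2 lowest as for WTAP. DBR1 was chosen for its nearness to WTAP, so the shared low library is part of that choice and no separate observation. A profile with no variation at all would lie 0.0515 from WTAP, and 374 genes lay closer than that, 1 of the writer genes among them. The likeness is over 6 libraries and was not tested.

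METTL14 and ZC3H13 had the order replicate 2, replicate 1, replicate 3 from low to high in both groups. The same order was found in 829 genes, or 6.10% of all genes tested, and in 22.9% of the coding genes in the lowest of 5 GC bins, where METTL14 lies, and 9.01% of those in bin 2, where ZC3H13 lies.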
